A study of Mus musculus with 6 samples.

Results

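The genes followed here were Gpihbp1, Lpl, Cd36, Fabp4, Fabp5, Rbp7, Aqp7 and Timp4. They are a set of 8 named for lipid uptake at the capillary wall, out of 31053 genes counted in each of 6 single-cell libraries of mouse lung. The genes come from a list that was drawn up with earlier results of these data known, and no threshold on a measured level chose them. They were read in endothelial cells (ECs), gated as cells with at least 2 unique molecular identifiers (UMIs, 1 per captured RNA molecule) of Pecam1 and Cdh5 together. ECs were also split by Gja4, a gap junction gene of arterial endothelium, and by Car4, a carbonic anhydrase gene of the alveolar capillary endothelium. Gpihbp1 and Cd36 rose at each step from E13.5 to P8. Lpl, Fabp4, Fabp5 and Rbp7 were lower at P8 than at E18.5. In the whole lungs Lpl, Fabp5 and Timp4 were highest outside the endothelium.

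Circulating triglyceride is carried in lipoprotein particles and is cleaved at the capillary lumen by lipoprotein lipase (Lpl). Gpihbp1 is the endothelial protein that carries this enzyme across the capillary wall and anchors it at the lumen. Cd36 is a scavenger receptor that takes up the released fatty acids, and the fatty acid binding proteins Fabp4 and Fabp5 carry them within the cell. Rbp7 is a small cytosolic retinoid binding protein, Aqp7 is a channel for water and glycerol, and Timp4 is a secreted inhibitor of metalloproteinases. In the lung, general capillary endothelium is known for Gpihbp1, and Lpl is also made by cells outside the endothelium.

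A set of 4 libraries came from cells sorted from Cxcl12DsRed/+ lungs, which carry the DsRed reporter in exon 1 of 1 copy of Cxcl12. They were taken at embryonic days E13.5, E15.5 and E18.5, and at postnatal day P8. The sort took reporter-positive cells with CD31 and without EpCAM or CD45, several lungs were mixed at each age, and the labels also speak of CD31-negative reporter-positive cells. The other 2 libraries were whole lungs at E18.5, labelled control (Cxcl12DsRed/+) and null (Cxcl12DsRed/DsRed), so that the controls also carry 1 reporter copy. Each group was 1 library, so no test between groups was possible and all intervals cover counting error only.

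The libraries held 63746333 to 117522172 UMIs. ECs were 210 of 12726 kept cells at E13.5, 9453 of 11649 at E15.5, 9119 of 9542 at E18.5 and 8259 of 8451 at P8, and 2022 of 8268 in the library labelled control and 3042 of 9157 in the library labelled null. Their median depth was 5667 to 8924 UMIs. Summed markers of mesenchymal cells, which the sort could also hold, fell in ECs from 878 CPM (UMIs of a gene scaled to a common total for each population) at E13.5 to 397, 153 and 25.6 CPM at the later ages, and were 515 CPM in the library labelled control and 727 CPM in that labelled null. Endothelial markers summed to 6057, 6619, 11502 and 14159 CPM in the sorted ECs. Cells with UMIs of cycling genes were 44.8%, 42.2%, 11.1% and 9.27% of sorted ECs, and the part of mesenchymal RNA in the time course was not tested. Without cycling cells, and with cells thinned to equal depth, each count of the 8 genes called between ages was within 1.5 times the reported one, whereas the share of all genes called from E13.5 to E15.5 was not. Cxcl12, the targeted gene, went against the labels of the whole lungs, with 499 CPM in ECs of the library labelled null and 4.24 CPM in that labelled control, and the names under which these data were deposited also give the opposite genotypes. The libraries are therefore called by their labels throughout, and each difference between them carries that doubt. The whole-lung libraries shared 140 cell barcodes, 1.58% of the smaller library.

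The genes lie apart from each other on GRCm38, except that Fabp5 (chr3:10012548-10016607, plus strand) and Fabp4 (chr3:10204088-10208576, minus strand) are close neighbours. Gpihbp1 is at chr15:75596628-75599481 on the plus strand and Lpl at chr8:68880491-68907448 on the plus strand. Cd36 is at chr5:17781690-17888801, Rbp7 at chr4:149449687-149454978, Aqp7 at chr4:41033074-41048139 and Timp4 at chr6:115241892-115252205, all on the minus strand. At the 3′ ends, which this method counts, 60-base words of the transcripts were shared with no other gene for 7 of the genes, whereas 21 of the 561 words of Aqp7 occurred elsewhere. RefSeq promoter windows on GRCm38.p6 were held for 4 of the genes, Cd36, Rbp7, Aqp7 and Timp4, and not for Gpihbp1, Lpl, Fabp4 and Fabp5. The windows of Cd36 and Rbp7 are shown because these genes moved in opposite directions between E18.5 and P8. Capitals mark the motifs found in them.

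Cd36, chr5:17835847-17836146, minus strand: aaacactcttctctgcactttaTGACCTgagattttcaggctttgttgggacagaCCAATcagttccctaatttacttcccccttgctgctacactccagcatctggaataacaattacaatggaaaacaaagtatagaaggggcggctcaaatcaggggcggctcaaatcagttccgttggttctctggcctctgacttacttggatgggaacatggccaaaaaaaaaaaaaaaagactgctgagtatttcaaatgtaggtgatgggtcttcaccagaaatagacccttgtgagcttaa
Rbp7, chr4:149454919-149455218, minus strand: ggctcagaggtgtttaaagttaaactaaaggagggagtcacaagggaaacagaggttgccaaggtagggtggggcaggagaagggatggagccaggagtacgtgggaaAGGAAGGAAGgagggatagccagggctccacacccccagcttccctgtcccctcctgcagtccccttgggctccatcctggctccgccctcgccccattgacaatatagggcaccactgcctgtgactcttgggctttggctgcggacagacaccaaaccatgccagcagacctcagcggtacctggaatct

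In the Cd36 window, which lies inside the annotated gene, the capitals mark a CCAAT box at position -195 from the start and the nuclear receptor site AGGTCA on the other strand at -228, where the printed strand reads TGACCT. The Rbp7 window held the ETS core AGGAAG at -142 and again, overlapping it by its last letters, at -138. Both strands were searched. Over 32851 promoters of the same length, CCAAT was found in 37.4%, AGGTCA in 16.3% and AGGAAG in 35.4%. AGGTCA was in 3 of the 5 windows of these genes, those of Cd36 and the 2 overlapping windows of Aqp7, and AGGAAG was in 2, those of Rbp7 and Timp4. The GATA factor core, written GATAAG and found in 7.44% of all promoters, was in 1 window of Aqp7. No window held the core promoter letters TATAAA, which 13.6% of all promoters did. These matches describe letters only.

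Gpihbp1 rose throughout the time course. Its level in sorted ECs was 19.4 CPM (95% counting interval 13.5 to 27.0) at E13.5, then 142 (139 to 144) at E15.5, 440.0 (435 to 445) by E18.5 and 963 (955 to 971) by P8. At E13.5 a single cell held 12 of the 35 UMIs of Gpihbp1, and without the highest 1% of ECs the level was 8.15 CPM. No 2 neighbouring ages had intervals that overlapped, and the log2 ratios of the steps (with 0.5 CPM added) were 2.84, 1.63 and 1.13. Cd36, the fatty acid receptor, rose with it, with 2.77 CPM (0.90 to 6.48) at E13.5, then 19.1 (18.3 to 20.0) at E15.5, 259.8 (256 to 264) by E18.5 and 618 (611 to 624) by P8. The log2 ratios for Cd36 were 2.58, 3.73 and 1.25. At E13.5 the value rested on 5 UMIs in 3 cells, and without cycling cells Cd36 was at 0 there, so the first step has no firm size.

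Lpl took another course. It was at 6.10 CPM (3.05 to 10.9) at E13.5, then 3.25 (2.90 to 3.63) at E15.5, 78.9 (76.7 to 81.2) by E18.5 and 33.6 (32.1 to 35.05) at P8. The intervals at E13.5 and E15.5 overlapped, the step to E18.5 was 4.40 on the log2 scale, and Lpl then fell by 1.22 to P8. In the earlier step Lpl was under the filter of a mean of 5 CPM.

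The fatty acid binding proteins were the reverse of Gpihbp1 after birth. Fabp5 was at 387 CPM (359 to 417) at E13.5, then 351 (348 to 355) at E15.5, 248 (244 to 252) by E18.5 and 63.9 (62.0 to 66.0) by P8, with a last step of -1.95 on the log2 scale. Fabp4 was at 129.9 CPM (114 to 148), 361 (357 to 365), 422 (417 to 427) and 75.0 (72.8 to 77.2) at the same ages. Its ratios were 1.47, 0.23 and -2.49.

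The summed Fabp4 level is carried by few cells, so that its counting intervals are far too narrow. Of the 234 UMIs of Fabp4 at E13.5, 230 were in 1 EC of 56355 UMIs. Without the highest 1% of ECs, which include that EC, the first step was larger, from 0.58 to 197 CPM. ECs called as doublets were 18.1% of ECs at E13.5 and 4.34% at E15.5. Without these doublets the first ratio was smaller, at 0.99, and which of the removed cells lowered it was not tested. At P8 the 1% of ECs with the most Fabp4 held 99.3% of its UMIs, against 46.2% at E15.5 and 44.1% at E18.5. Leaving out that 1% of cells gave Fabp4 levels of 0.58, 197, 240.0 and 0.54 CPM over the ages. Fabp4 was thus detected in 1.90%, 13.6%, 15.9% and 1.40% of ECs, and the fall at P8 stood with and without those cells.

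Rbp7 was at 76.0 CPM (63.8 to 89.9) at E13.5, then 129.5 (127 to 132) at E15.5, 78.6 (76.4 to 80.9) by E18.5 and 24.3 (23.0 to 25.5) by P8. It was highest at E15.5 and its last step was -1.68. The share of Rbp7 UMIs in the highest 1% of ECs was also large at P8, 58.6%, and without these cells its level there was 10.2 CPM.

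Aqp7 and Timp4 were close to the limit of detection in ECs. Aqp7 had 0, 20, 31 and 24 UMIs in the sorted ECs, or 0, 0.21, 0.52 and 0.39 CPM, where the absence at E13.5 allows a level of up to 1.66 CPM (3 counts). Timp4 was at 4.44 CPM (1.92 to 8.75) at E13.5, then 2.03 (1.76 to 2.34) at E15.5, 5.04 (4.49 to 5.64) by E18.5 and 0.41 (0.26 to 0.60) by P8. Its interval at E13.5 overlapped those of both other embryonic ages and not that at P8.

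A gene was called changed when the log2(CPM + 0.5) of 2 populations differed by at least 2-fold and its mean level was at least 5 CPM. From E13.5 to E15.5 the genes Gpihbp1, Cd36 and Fabp4 were called higher, 3 of the 5 that passed the filter, where 2.50% of 9667 genes were, and none was called lower, as were 4.89% of genes. With thinned cells 3 of 5 were higher against 8.41% of genes and none lower against 10.5%, and without cycling cells 4 of 5 were higher against 4.32%. With doublet calls removed 2 of 5 were higher, Gpihbp1 and Cd36, against 3.12%. From E15.5 to E18.5 Gpihbp1, Lpl and Cd36 were higher, 3 of 6 against 8.56% of genes, and none was lower against 4.77%. From E18.5 to P8, 2 of 6 were higher, Gpihbp1 and Cd36, against 3.93%, and 4 were lower, Lpl, Fabp4, Fabp5 and Rbp7, against 4.32%.

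**Figure D1:**
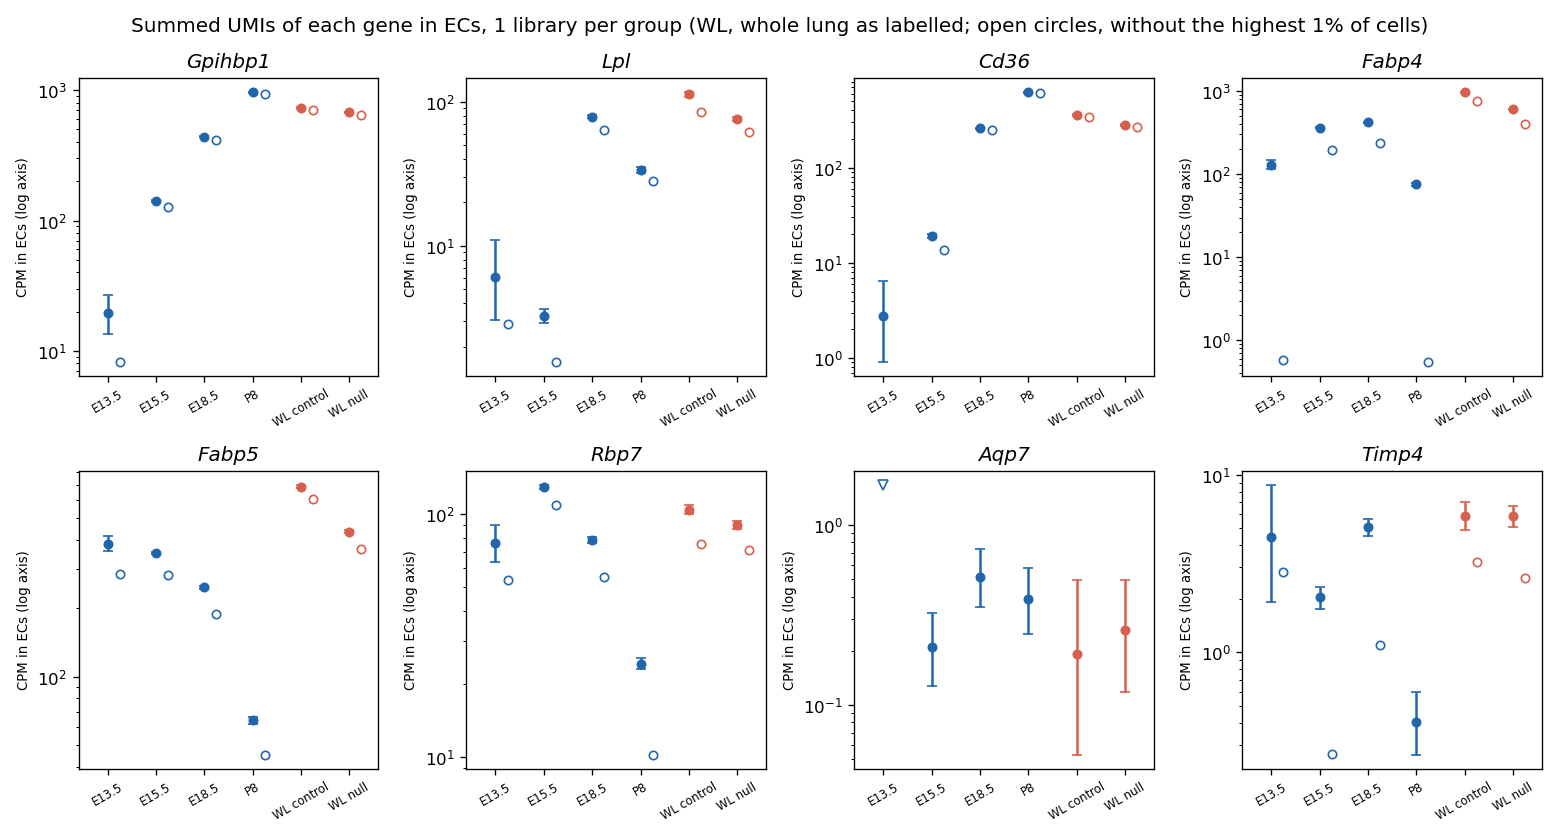
Summed level of each gene in ECs (CPM, log axis) in the 4 sorted libraries by age (blue) and in the whole lungs (WL) as labelled (red), 1 library per point, with exact 95% Poisson counting intervals. Open circles leave out the 1% of ECs with the most UMIs of the gene (not drawn where the level is then 0), and the triangle is the limit of 3 counts for Aqp7 at E13.5 (1.66 CPM). Gpihbp1 climbs from 19.4 to 963 CPM, whereas Fabp4 at P8 drops from 75.0 to 0.54 CPM when those cells are left out.

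The levels followed the number of ECs with the gene. Gpihbp1 was detected in 7.14%, 42.9%, 59.9% and 82.8% of ECs from E13.5 to P8, and Cd36 in 1.43%, 10.6%, 59.2% and 86.3%. With each cell thinned to 2000 UMIs, which left out 2, 20, 141 and 197 shallower ECs, the shares were 1.44%, 18.2%, 42.4% and 69.2% for Gpihbp1 and 0.48%, 3.41%, 36.2% and 64.4% for Cd36. Mesenchymal cells of the same libraries, which should lack both genes and had median depths of 7241 to 8455 UMIs, gave 0%, 0.22%, 0.82% and 4.92% for Gpihbp1 and 0.02%, 0.11%, 0.41% and 1.64% for Cd36. Cd36 at E13.5 rested on 1 thinned cell, and its interval, 0.01% to 2.65%, took in the mesenchymal share.

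Fabp5, Fabp4 and Lpl were not particular to ECs in the sorted libraries. Thinned ECs held Fabp5 in 35.6%, 29.7%, 18.7% and 8.19%, and the mesenchymal cells in 41.7%, 37.4%, 23.8% and 11.5%. Fabp4 was in 7.98% of ECs and 9.82% of mesenchymal cells at E15.5, and in 11.1% and 23.4% at E18.5. Lpl was in 0.59% and 3.46% at E15.5, in 10.9% and 11.9% at E18.5, and in 5.64% and 14.8% at P8. Pericyte-like cells of the whole lungs, which are mesenchymal, held Fabp4 and Fabp5 themselves, so the mesenchymal share of these genes is not a background level. The levels given for Fabp5, Fabp4 and Lpl are those of gated ECs, and how many of their UMIs came from free RNA or from mesenchymal cells was not tested. Timp4 was also below the mesenchymal share in every sorted library, with 0.05% to 0.52% in ECs and 3.48% to 19.7% in mesenchymal cells. Rbp7 stood apart from this group, with 8.17%, 16.1%, 9.31% and 2.54% of thinned ECs against at most 0.27% of mesenchymal cells. At P8 the mesenchymal cells were too few to place the EC share of Rbp7 above theirs, so this holds for the embryonic ages.

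**Figure D2:**
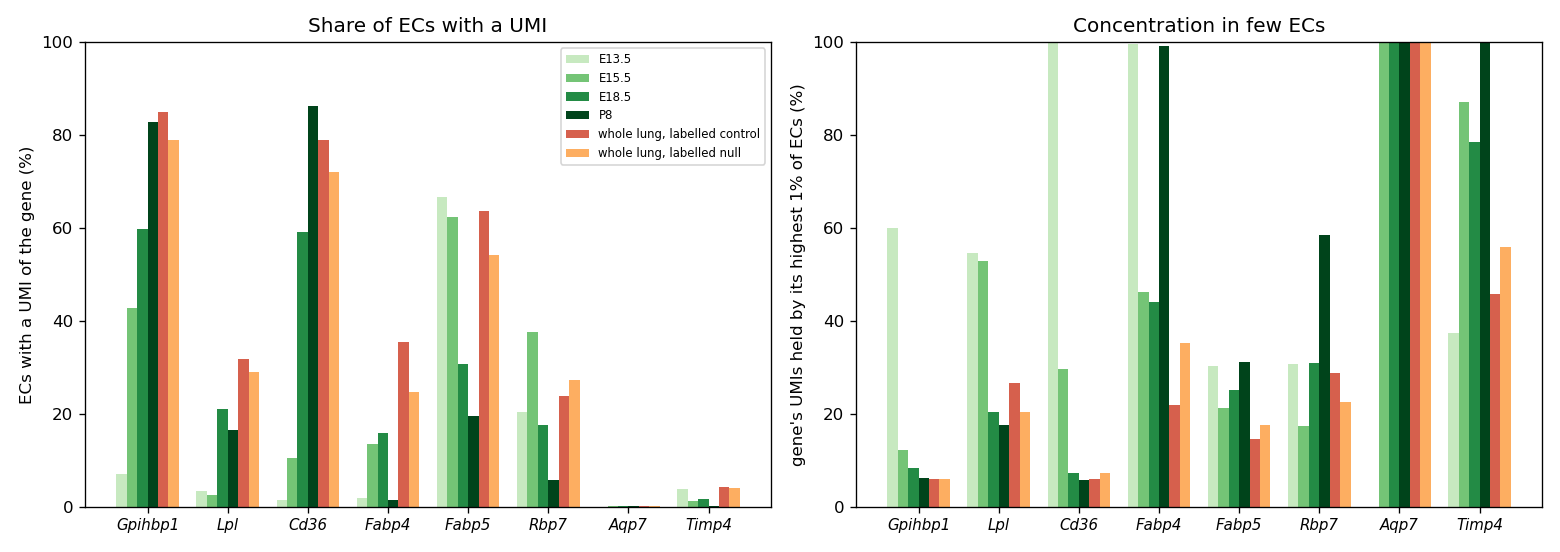
Left, share of ECs with at least 1 UMI of each gene (%), and right, share of the gene's UMIs held by the 1% of ECs with the most of it (%), in the 6 libraries. Gpihbp1 and Cd36 are spread over more than 80% of ECs at P8, whereas 99.3% of Fabp4 UMIs lie in 1% of the cells at that age. For Aqp7 at E13.5 there were no UMIs and no bar is drawn.

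The next question was whether the genes differ between reporter-positive ECs split by Gja4 and by Car4. Gja4 ECs, with at least 2 UMIs of Gja4 and fewer than 2 of Car4, numbered 7161, 5677 and 5171 at E15.5, E18.5 and P8. They were 75.8%, 62.3% and 62.6% of ECs, and at P8 80.1% of them held a UMI of Gpihbp1. Gja4 ECs are therefore not read as arterial cells alone. Car4 ECs were 8, 575 and 591 cells, and the remaining ECs, with fewer than 2 UMIs of both genes, were 2282, 2590 and 1305 cells. ECs with at least 2 UMIs of both Gja4 and Car4 were 2, 277 and 1192 cells, the last being 14.4% of ECs at P8, and the latter groups were deeper, with medians of 9918 and 12364.5 UMIs. At P8 most Car4-positive ECs were therefore outside the Car4 ECs. At E13.5 there were no Car4 ECs and 18 remaining ECs, so that age was not compared.

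Gpihbp1 was higher in the remaining than in the Gja4 ECs at each age. At E15.5 it was at 105 CPM in Gja4 ECs and 248 CPM in remaining ECs, while the 8 Car4 ECs, too few to compare, held 503 CPM (372 to 665). At E18.5 it was at 310.4 CPM in Gja4 ECs, 449.5 in Car4 ECs and 749.8 in remaining ECs, and at P8 at 946, 723 and 1208 CPM. The log2 ratio of Gja4 over remaining ECs was -1.24, -1.27 and -0.35 over these ages. Without cycling cells Gpihbp1 was at 86.3 CPM in Gja4 and 339.5 CPM in remaining ECs at E15.5, and at 299 and 764 CPM at E18.5. The ratio of Car4 over remaining ECs was -0.74 at both later ages. ECs with both Gja4 and Car4 held 498 and 968 CPM of Gpihbp1 at these ages.

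Rbp7 had the opposite order. It was at 159.6 CPM in Gja4 ECs and 41.1 in remaining ECs at E15.5, and at 104 and 40.2 CPM at E18.5, with log2 ratios of 1.94 and 1.36. Without cycling cells, which left 4689 of the 7161 Gja4 and 775 of the 2282 remaining ECs, the E15.5 ratio of Rbp7 was 0.97 and no longer passed 2-fold. In Car4 ECs at E18.5 Rbp7 was at 18.4 CPM, below both, and ECs with both Gja4 and Car4 held 34.5 CPM then and 3.39 CPM at P8. At P8 it was at 31.7 CPM in Gja4 and 20.6 in remaining ECs, a ratio of 0.61 that became 3.0 once the highest 1% of cells of each population was left out. With cells thinned to 2000 UMIs before gate and split, the E15.5 ratio of Rbp7 was 0.46.

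Cd36 differed by less than 2-fold at the later ages. At E18.5 it was at 234 CPM in Gja4, 266 in Car4 and 308 in remaining ECs, and at P8 at 582, 644 and 614 CPM. ECs with both Gja4 and Car4 held 339 and 688 CPM of it. At E15.5 Cd36 was at 15.5 CPM in Gja4 and 29.1 CPM in remaining ECs, a ratio of -0.89. That ratio was -1.51 without cycling cells, -1.13 as a mean over cells, -1.16 with a split at 1 UMI and -1.06 without the highest 1% of cells, each past 2-fold. The rise of Cd36 and Gpihbp1 with age was present inside the split. Within Gja4 ECs the steps from E15.5 to E18.5 and on to P8 were 3.87 and 1.31 for Cd36 and 1.56 and 1.61 for Gpihbp1. Within remaining ECs these were 3.38 and 0.99 for Cd36 and 1.60 and 0.69 for Gpihbp1.

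Lpl and Fabp5 were lower in the Car4 ECs, which have fewer than 2 UMIs of Gja4, than in the remaining ECs. At E18.5 Lpl was at 68.3 and 110.1 CPM, and at P8 it was at 19.7 and 32.6 CPM, log2 ratios of -0.68 and -0.71. At E18.5 Fabp5 was at 71.0 and 271 CPM, and at P8 it was at 51.7 and 99.0 CPM, ratios of -1.92 and -0.93. ECs with both Gja4 and Car4 held 114 CPM of Lpl at E18.5, not below the remaining ECs, and 29.8 CPM at P8. Fabp5 was at 96.1 and 47.4 CPM in them. In Gja4 ECs Fabp5 was at 269 and 67.0 CPM at E18.5 and P8, while at E15.5 it was at 266 CPM there and 597 CPM in the remaining ECs. Without cycling cells these E15.5 levels of Fabp5 were 229.9 and 995 CPM.

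Fabp4 was higher in the remaining than in the Gja4 ECs at each age, with 802 against 206 CPM at E15.5, 617 against 389.8 at E18.5 and 264 against 23.3 at P8. At E18.5 the share of cells with Fabp4 had the other order, 10.8% of remaining and 12.4% of Gja4 ECs when thinned, and 13.9% and 17.98% unthinned. In Car4 ECs it was at 203 CPM before birth (E18.5) and 449.7 CPM at P8, and in ECs with both Gja4 and Car4 at 144 and 15.5 CPM. At E18.5, 6 of the 575 Car4 ECs held 769 of their 819 Fabp4 UMIs, and without these cells the level was 12.6 CPM. The P8 value describes 2 cells, which held 1916 of the 1922 Fabp4 UMIs and are among the 591 Car4 ECs. For Rbp7 the 2 highest Car4 ECs held 207 of 210 UMIs, behind a level of 49.1 CPM. Without the highest 1% of cells Fabp4 was at 0.48 CPM in Car4 and 4.62 CPM in remaining ECs at P8.

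Across all 3 ages at once, none of the 5 genes that passed the filter was called higher in Gja4 ECs, against 0.351% of 8835 genes, or lower, against 0.283%. None was called higher or lower in Car4 ECs over 3 ages, against 0.0859% and 0.528% of 8147 genes, although the 8 Car4 cells at E15.5 decide that count. With E18.5 and P8 alone, an alternative chosen after seeing the data, none of 6 was higher, against 1.03%, and none lower, against 1.76%. Under a 1.5-fold call 3 of 6 were lower in Car4 ECs at those ages, Gpihbp1, Lpl and Fabp5, against 4.76% of genes, and with thinned cells 4 of 6 were, Lpl, Fabp4, Fabp5 and Rbp7, against 2.05%. No p-value stands behind these counts, as with 1 library per age no test was possible.

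**Figure D3:**
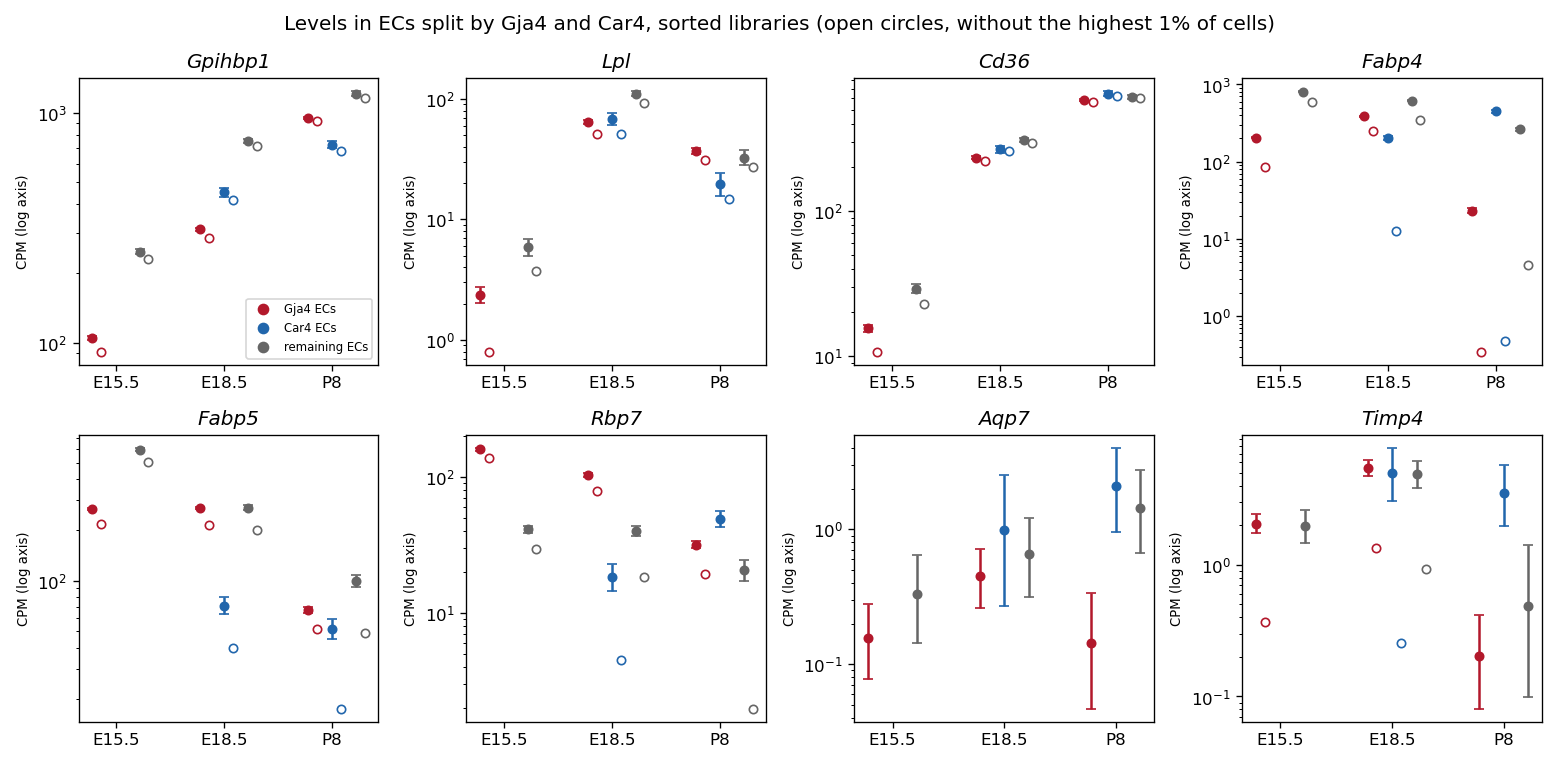
Level of each gene (CPM, log axis) in Gja4 ECs (red), Car4 ECs (blue) and remaining ECs (grey) of the sorted libraries at E15.5, E18.5 and P8, with exact 95% Poisson counting intervals. Open circles leave out the highest 1% of cells of the population for that gene, and Car4 ECs at E15.5 (8 cells) are not drawn. Gpihbp1 is higher in remaining than in Gja4 ECs at each age, and the Car4 value of Fabp4 at P8 drops from 449.7 to 0.48 CPM without those cells.

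Whether the genes were found in the same cells was asked of thinned ECs, as the ratio of ECs with both genes to the number that independence of the single shares gives. For Fabp4 and Fabp5, the neighbours on chromosome 3, the ratio was 2.33 (95% interval 2.14 to 2.54) at E15.5, 2.85 (2.62 to 3.1) by E18.5 and 4.41 (2.76 to 6.67) by P8, from 522, 533 and 22 cells with both. In the whole lungs it was 1.61 (labelled control) and 1.95 (labelled null). For Fabp4 and Rbp7 it was 1.57, 1.99 and 7.74 in the sorted ECs, from 190, 185 and 12 cells, and 2.12 and 2.33 in the libraries labelled control and null. Inside the remaining ECs both pairs kept ratios over 1, with 2.04, 3.11 and 3.80 for Fabp4 with Fabp5 and 2.26, 5.12 and 11.8 for Fabp4 with Rbp7, from 6 and 2 cells with both at P8.

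Of the 28 pairs, 5 passed a ratio of 1.5 in all 3 sorted libraries from E15.5 on. Pairs of other genes were not read, so whether this count is unusual was not tested. Besides the pairs above these were Aqp7 with Lpl, Fabp4 and Rbp7, which rest on 1 to 6 cells. No pair passed when at least 5 cells with both had to be expected, since for Fabp4 with Fabp5 4.99 cells were expected at P8. Without thinning, where deep cells hold more of every gene, Fabp4 with Fabp5 and Fabp4 with Rbp7 were no longer among the 4 pairs that passed.

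Gpihbp1 and Cd36 were co-detected 2.23 times as often as independence gives at E15.5, 1.31 times by E18.5 and 1.09 times by P8, as each became common, and 3927 of 8062 thinned ECs held both at P8. Lpl and Cd36 had ratios of 2.62, 1.33 and 1.06, and Lpl and Gpihbp1 1.67, 1.64 and 1.20. Lpl went with Fabp4 at E15.5, at 4.03 (18 cells), but at E18.5 the ratio was 0.51 (0.38 to 0.66). Lpl and Rbp7 likewise had ratios of 1.22, 0.44 and 0.35 in the sorted libraries. A thinned EC held on average 0.48, 0.76, 1.29 and 1.51 of the genes from E13.5 to P8.

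**Figure D4:**
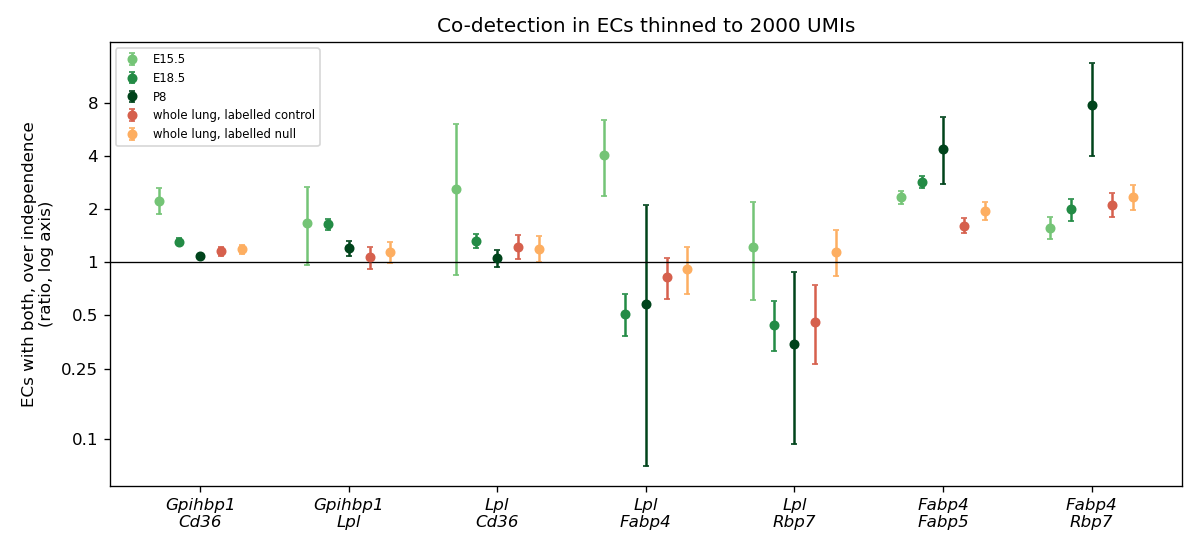
Ratio of ECs with both genes of a pair to the number given by independence (log axis) in ECs thinned to 2000 UMIs, in the sorted libraries from E15.5 (green) and the whole lungs (red, labelled control, and orange, labelled null), with 95% intervals from the exact binomial share. The line at 1 marks independence. Fabp4 with Fabp5 and with Rbp7 lie above it in every library drawn, and Lpl with Fabp4 lies above it at E15.5 and below it at E18.5.

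Fabp4-rich ECs, with at least 5 Fabp4 UMIs after thinning, numbered 384 (4.07% of the thinned ECs), 374 (4.17%) and 25 (0.31%) at E15.5, E18.5 and P8, and 1 cell at E13.5. They were 234 cells (11.6%) in the library labelled control and 194 (6.42%) in that labelled null. This cell group was defined after seeing the data and Fabp4 itself chose it, so the values of the other genes are a description of these cells.

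Fabp5, Rbp7 and Aqp7 were higher in the Fabp4-rich cells than in the other ECs of the sorted libraries from E15.5 on. Fabp5 was at 1957, 1130 and 1294 CPM in them at E15.5, E18.5 and P8, and at 287, 202 and 58.3 CPM in the others. Rbp7 was at 437, 419 and 1356 CPM against 117, 60.7 and 17.99 CPM. Aqp7, barely seen elsewhere, was at 3.82, 8.65 and 75.9 CPM against 0.07, 0.09 and 0.03 CPM.

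Such sums rest on few cells at P8, where the 2 ECs highest in Aqp7 held 12 of all 24 Aqp7 UMIs and the 2 highest in Rbp7 held 207 of all 1497 Rbp7 UMIs. For Timp4, at 55.2 CPM in the 25 Fabp4-rich cells and 0.13 CPM in the other ECs, 1 EC held 13 of all 25 UMIs at that age. Lpl did not follow: it was higher in the Fabp4-rich cells at E15.5, at 25.7 against 2.36 CPM, and lower at E18.5 and P8, at 39.9 against 80.8 and 10.3 against 33.6 CPM. Cd36 was at 236 against 10.5 CPM at E15.5 but at 268 against 259 at E18.5 and 666 against 617 at P8. Gpihbp1 was at 704, 763 and 1745 CPM in them against 119, 423 and 961 CPM in the others.

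Regulators named after their values were seen moved with these cells. Meox2, a homeobox regulator that acts with Tcf15, was at 69.6, 36.6 and 93.1 CPM in the Fabp4-rich cells and at 5.53, 2.23 and 1.54 CPM in the other ECs. Tcf15 was at 257, 115 and 376 CPM against 101, 50.3 and 51.0 CPM. Pparg, a nuclear receptor for fatty acids, was at 13.6, 27.9 and 58.6 CPM against 1.82, 5.06 and 0.72 CPM. In the library labelled control Meox2 was not higher in them, at 9.46 against 12.05 CPM, whereas it was at 16.5 against 8.22 CPM in the library labelled null.

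The whole lungs show which cells besides endothelium hold these genes. Clusters of cells were classed by markers into an endothelial class (1815 cells in the library labelled control and 2846 in that labelled null), a mesenchymal class (4481 and 4344), an epithelial class (580 and 307) and an immune class (890 and 891). Of the 7 genes that passed the filter, 4 were highest in the endothelial class in both libraries, Gpihbp1, Cd36, Fabp4 and Rbp7, as were 24.5% of 10617 genes. Free RNA gives UMIs in cells that do not express a gene, and its part in the low levels was not tested.

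Gpihbp1 was at 853 and 758 CPM in the endothelial class (library labelled control, then null) and at 7.87 and 10.9 CPM in the mesenchymal, 12.6 and 12.3 CPM in the epithelial and 38.1 and 38.1 CPM in the immune class. Cd36 was at 402 and 308 CPM in the endothelial class and at 129 and 114 CPM in the epithelial class, where AT2-like cells, which make surfactant, held 241 and 209 CPM. Rbp7 was at 118 and 102 CPM in the endothelial class, the other classes held at most 7.35 CPM, and within the endothelium arterial-like cells had 251 and 213 CPM. The arterial-like cluster was not the same kind of cell in both libraries, since it was led by genes such as Vwf, Dkk2 and Fbln2 in the library labelled control and by Alox12, Gja5 and Gja4 in that labelled null, where the cluster with Vwf, Dkk2 and Fbln2 stayed unnamed. Fabp4 was at 1056 and 651 CPM in the endothelial class.

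Fabp5 was highest in the epithelium. It reached 4192 and 3879 CPM in AT2-like cells of the libraries labelled control and null, against 670.0 and 433 CPM in the endothelial class. Lpl was highest in the immune class, at 461 and 282 CPM, and its neutrophil-like cells held 576 and 406 CPM, while the endothelial class held 74.7 and 64.0 CPM. The intervals of these sums do not cover differences between cells of a cluster. The neutrophil-like clusters were led by S100a9 and Retnlg, but in the library labelled null Mpeg1, Lyz2 and Klra2 were also among the leading genes. Of their cells 16.5% and 26.9% had UMIs of cycling genes. The neutrophil-like name is therefore not firm, and other immune cells may be among them.

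Timp4 was highest in pericyte-like cells. They held 348 and 423 CPM of Timp4 and the endothelial class 4.92 and 4.42 CPM. Pericyte-like cells also held Fabp4, at 578 and 587 CPM, and Fabp5, at 791 and 747 CPM, but little Cd36, at 6.60 and 6.01 CPM. Of the endothelial cell types of the library labelled null, general capillary-like cells (853 cells) had 1214 CPM of Gpihbp1 and 1494 CPM of Fabp4, and lymphatic-like cells (51 cells) had 235 CPM of Gpihbp1, 1091 CPM of Fabp4 and 1191 CPM of Fabp5.

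**Figure D5:**
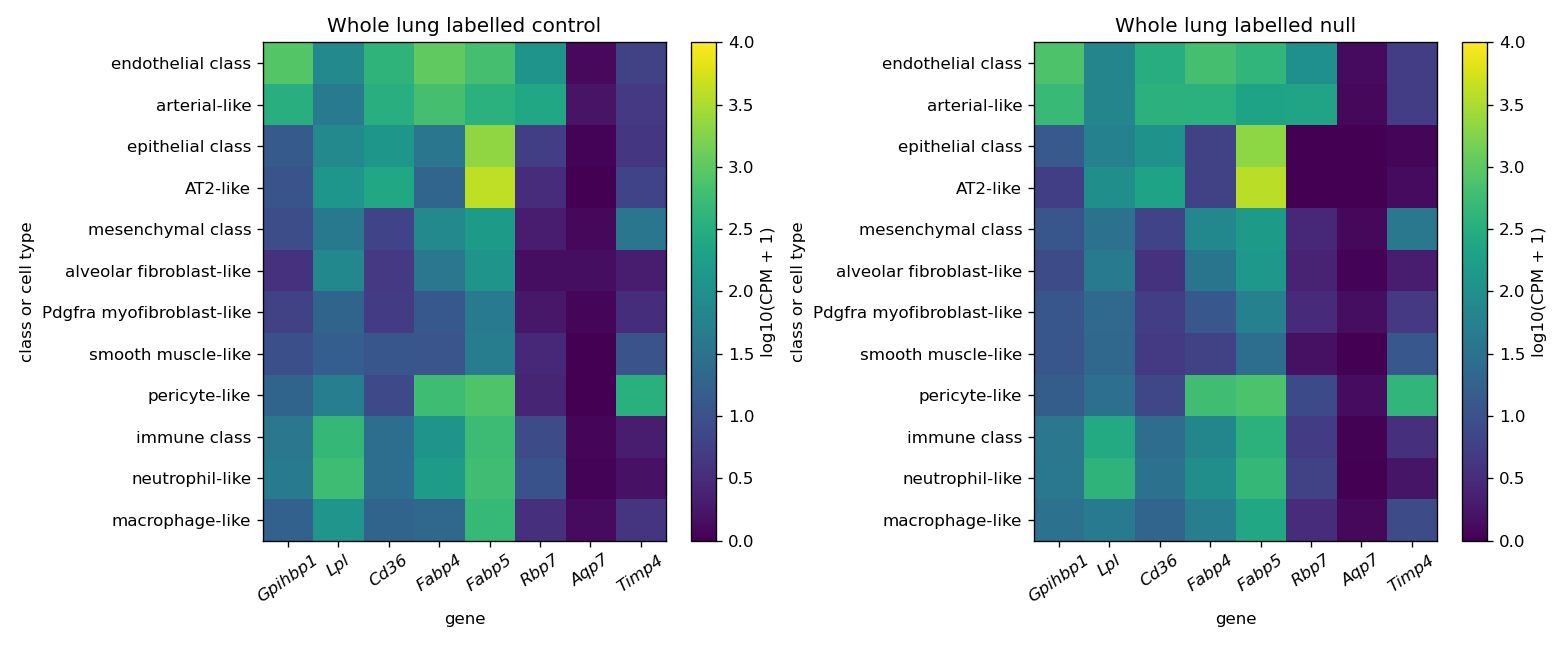
Level of each gene as log10(CPM + 1), by colour, in the classes and named cell types of the whole lungs labelled control (left) and null (right), 1 library each. Fabp5 is highest in AT2-like cells (4192 and 3879 CPM), Lpl in neutrophil-like cells (576 and 406 CPM) and Timp4 in pericyte-like cells (348 and 423 CPM), whereas Gpihbp1 and Rbp7 mark the endothelial rows. The neutrophil-like name is not firm.

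The last comparison was between ECs of the whole lungs, whose labels Cxcl12 goes against. In the libraries labelled control and null, Gpihbp1 was at 730.5 (719 to 742) and 676 (668 to 685) CPM, Lpl at 112.5 (108 to 117) and 75.9 (73.1 to 78.9) CPM, and Cd36 at 356 (347 to 364) and 280.1 (275 to 286) CPM. All 3 were lower in the library labelled null by more than counting error, with log2 ratios of -0.11, -0.56 and -0.34. For Gpihbp1 that order held in Gja4 ECs and was reversed in remaining ECs. Without the highest 1% of cells, remaining ECs of the libraries labelled control and null held 781 and 831 CPM of Gpihbp1, and Gja4 ECs held 568 and 494 CPM. The part of the mix of ECs in the pooled values was not tested. For Lpl the endothelial class, taken by cluster, held 74.7 and 64.0 CPM, a smaller difference. Of the cells in immune clusters, the class with the most Lpl, 6.91% to 18.03% in the library labelled control and 11.1% to 11.96% in that labelled null fell in the EC gate. Fabp4 was at 962 (949 to 975) and 600.5 (592 to 609) CPM and Fabp5 at 692 (680.3 to 703) and 436 (429 to 443) CPM, ratios of -0.68 and -0.67. Rbp7 was at 104 (100.1 to 109) and 90.3 (87.1 to 93.5) CPM, a ratio of -0.21.

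Timp4 was at 5.88 and 5.82 CPM in these ECs, and Aqp7 had 4 and 9 UMIs. None of the 7 genes that passed the filter was called higher in the library labelled null, against 0.362% of 10235 genes, or lower, against 0.576%. Fabp4 alone passed 2-fold, at -1.02, with the values adjusted for free RNA by the authors. The immune markers in ECs were 573 CPM in the library labelled control and 325 CPM in that labelled null, and Gja4 ECs were 29.2% and 47.3% of ECs. With 1 library of each label, a difference between lungs and one between genotypes cannot be told apart.

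Beyond these 8 genes, 79 genes of lipid handling, retinoid handling, aquaporins and related regulators were read by lists. Between E13.5 and E15.5, 4 of the 50 that passed the filter were called higher and 4 lower, where 2.50% and 4.89% of all genes were. Among the lower were Crabp1, a retinoic acid binding protein, at 111 and 7.67 CPM, and the lipoprotein receptor Vldlr, at 8.32 and 2.08 CPM. Between E15.5 and E18.5, 10 of 47 were higher and 1 lower, against 8.56% and 4.77% of all genes, and the list median log2 ratio was 0.43 against 0.17 over all genes tested. The lipid droplet list had 4 of 8 higher, against the same 8.56%. The list of transcriptional regulators had 3 of 9 higher, fatty acid transport and activation 1 of 8 and fatty acid oxidation 0 of 9. Hilpda, a lipid droplet protein that inhibits lipolysis, rose from 38.0 to 296 CPM, and Meox1, a homeobox regulator, from 8.91 to 49.97 CPM.

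From E18.5 to P8, 4 of 46 were higher and 2 lower, against 3.93% and 4.32% of all genes. Hilpda rose on to 816 CPM, and Aqp5, an aquaporin of the alveolar epithelium, was at 7.95 and 2.84 CPM. Summed epithelial markers in these ECs were 14.3 and 5.31 CPM, and their part in the Aqp5 values was not tested. None of the 57 that passed was higher in ECs of the library labelled null and 2 were lower, Apoc1 (-1.25) and Cebpa (-1.02), against 0.362% and 0.576% of all genes. The part of the immune markers in ECs, 573 CPM in the library labelled control and 325 CPM in that labelled null, was not tested.

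In the split, 1 of 49 listed genes was higher and 2 were lower in Gja4 than in remaining ECs at E15.5, where 3.74% and 2.37% of all genes were. At E18.5 2 of 48 were higher and 4 lower, against 3.73% and 3.91%. The homeobox genes Meox1 and Meox2 were lower in Gja4 ECs at both ages, at -1.95 and -2.27 and then at -1.53 and -1.32. At P8 neither was called, and of 46 listed genes only Aqp5 was, at 0.49 CPM in Gja4 and 22.3 CPM in remaining ECs, against 1.52% of all genes lower.

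In Car4 ECs at E18.5, 1 of 47 listed genes was higher and 2 were lower than in remaining ECs, against 1.86% and 4.39% of all genes. G0s2, an inhibitor of triglyceride lipolysis, was at 18.9 and 4.61 CPM, and Aqp5 at 3.23 and 11.1 CPM. At P8 2 of 49 were higher and 3 lower, against 2.24% and 3.51%, with Aqp5 at 0.94 and 22.3 CPM and the regulator Foxo1 at 31.6 and 75.5 CPM. In the 8 Car4 ECs of E15.5 the largest ratios were of Acsl3 and Lmf1, which had no UMI there and in the remaining ECs were below the level of 3 counts in those cells.

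Over 35 cell groups of the 6 libraries, which share libraries and depth, the genes whose log2(CPM + 1) followed Gpihbp1 most closely were Ccdc85a, Unc45b and Gimap4, with Pearson's r of 0.97 each. For Cd36 they were Clic5 (0.93), Rasgef1a (0.90) and Ly6c1 (0.90). For Rbp7 they were Tcf15 (0.92), Fam198b (0.92) and Camk4 (0.91). For Timp4 they were Map3k7cl (0.82), Heyl (0.80) and Slc20a2 (0.78), and for Fabp4 Sh2d3c (0.76), Cav1 (0.75) and Trp53i11 (0.74). For Lpl the 3 genes were Gga1 (0.79), Kdm7a (0.77) and Stat6 (0.76), and for Fabp5 Nek6 (0.72), Ubqln4 (0.71) and Cab39l (0.69). For Aqp7 they were Abhd16a (0.67), Snapc5 (0.66) and Fam103a1 (0.65). The mean level of Aqp7 over these groups was 0.33 CPM, so its r values rest on few UMIs. Among the 8 genes themselves the profile of Gpihbp1 was closest to those of Cd36 (0.83), Rbp7 (0.78) and Fabp4 (0.70), and it did not follow Fabp5 (-0.01) or Timp4 (-0.08). The cell groups included epithelial, mesenchymal and immune types of the whole lungs, so these r values also compare endothelium with other cells. Within sorted ECs Gpihbp1 and Rbp7 moved in opposite directions from E18.5 to P8, with log2 ratios of 1.13 and -1.68.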

How the data were processed

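Single-cell 3′ RNA libraries (10x, version 3 chemistry) of mouse lung were analysed, 4 of sorted cells and 2 of whole lungs. The authors aligned reads to mm10 with Cell Ranger 3.1 (per the labels) and deposited UMI counts of each gene in each called cell, not normalized. For the whole lungs they also deposited expected counts, UMI counts adjusted for free RNA with SoupX, which are not whole numbers and were used here as an alternative only. Samples were grouped by their labels. Members and lists were chosen with earlier results of these data known.

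Cells with at least 700 genes and 0.5% to 10% mitochondrial UMIs were kept. ECs had at least 2 UMIs of Pecam1 and Cdh5 together. UMIs were summed over the cells of a population and given as CPM with exact Poisson intervals at 95%, and shares as exact Clopper-Pearson intervals. Both cover counting error only, and cells that differ make the true spread wider. Genes were called at 2-fold on log2(CPM + 0.5) with a mean of at least 5 CPM. The rule was tried on simulated sums with Poisson counting error only. That trial held no differences between cells or libraries, so it cannot show how the rule behaves under them. Doublets were called with Scrublet (in scanpy 1.11.5) as an alternative and not removed. It found no threshold at E18.5 and P8 of the sorted cells, where the highest scores up to the expected rate of 0.08 were called. Genes named are the 8 members, the 2 listed genes with the largest change per comparison (with others named as chosen after their values were seen), and the 3 genes most like each member over populations of at least 50 cells. Those like genes had a mean of at least 10 CPM, a limit that was not applied to the members.

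Whole lungs were clustered by the Louvain method in igraph 0.11.9 (3000 variable genes without the members and lists, 20 components, 20 neighbours, resolution 0.8). Clusters were classed by broad markers, and the scoring was chosen after the first cluster names had been seen. Where the second-best class scored 0.4 of the best or more, the cluster was left out as mixed, a cluster of over 10% haemoglobin UMIs likewise, and type names needed 3 markers of 10 CPM. No cluster was classed as mesothelial, and clusters led by Ager stayed unnamed. Gene positions are from GENCODE M21, to which 31011 of 31053 gene identifiers matched. Library depth was 63746333 to 117522172 UMIs. Alternatives changed the gate, cell limits, fold, pseudocount, split, doublets, cycling cells, thinning and scaling. The 4 added after seeing the data were Car4 ECs at E18.5 and P8 alone, leaving out shared barcodes, leaving out the highest 1% of cells for a gene, and pairs with at least 5 cells expected. Computation used Python 3.11.15, numpy 2.4.6, scipy 1.17.1 and pandas 2.3.3.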

Additional observations from a re-analysis of the deposited data

Results flagged for a closer look

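For Fabp4 and Rbp7 the difference between Car4 and remaining ECs pointed in opposite directions at the 2 later ages, which was not tested. At E18.5 the log2 ratio was -1.60 for Fabp4 and -1.11 for Rbp7, whereas at P8 these were 0.77 and 1.23. At P8 the 2 of 591 Car4 ECs highest in Fabp4 held 1916 of its 1922 UMIs, and the 2 highest in Rbp7 held 207 of its 210. At E18.5 the 6 of 575 Car4 ECs highest in Fabp4 held 769 of its 819 UMIs, and the 6 highest in Rbp7 held 56 of its 74. With the highest 1% of cells for the gene left out, the Rbp7 ratio at P8 was -2.31. It came from 0 CPM in Car4 and 1.97 CPM in remaining ECs, so the added 0.5 CPM sets its size. Fabp4 was then also lower in Car4 ECs at P8, at 0.48 CPM against 4.62 CPM in remaining ECs.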

How the results depend on the processing

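Of 194 recomputed counts of called genes or pairs, 179 stayed within 1.5 times the reported count and 15 did not. Of 936 recomputed ratios of single genes 889 kept their call or lack of one, 35 were newly called, 8 no longer were and 4 changed sign with a call before or after. The 889 include ratios that changed sign without a call, such as that of Fabp5 from E13.5 to E15.5, at -0.14 as reported and 0.35 without cycling cells. They also include those of Aqp7, under the filter of 5 CPM in every reported comparison, and of Timp4, under it in most. Such ratios could hardly be called, so the tally overstates how stable the calls were. A call also needs a mean of 5 CPM, and Fabp4 in Gja4 over remaining ECs at P8, at -2.59 without the highest 1% of cells, lost its call by that filter (0.35 and 4.62 CPM) and not by its fold. The cause of these shifts was not tested, apart from the lower fold. Under a 1.5-fold call the number lower in Car4 ECs at E18.5 and P8 was 3 (4.76% of all genes), lower in ECs of the library labelled null 2 (2.66%), and lower at E18.5 than at E15.5 (11.3%), higher in Gja4 ECs (1.21%) and lower in Gja4 ECs at all 3 ages (2.33%) 1 each, all from a reported 0. Lower in Car4 ECs at E18.5 and P8 was 4 with cells thinned to 2000 UMIs (2.05% of all genes), and 1 with the mean over cells (1.78%), without cycling cells (1.71%), against all ECs below the threshold (1.69%), and without the highest 1% of cells. Thinning gave 1 lower in Car4 ECs over all 3 ages (1.89%). Higher in Gja4 ECs was 1 with a split at 1 UMI (0.408%) and 1 without the highest 1% of cells, and SoupX-adjusted values gave 1 lower in the library labelled null (2.31%). Cells were left out by their level for the 8 genes alone, so that setting has no share over all genes. The shares of all genes called moved as well. Apart from the lower fold, they ran from 1.43% to 8.41% higher and from 2.29% to 10.5% lower for E13.5 to E15.5, and from 0.156% to 3.45% higher and 0.254% to 2.31% lower for the library labelled null. Over all 3 ages they ran from 0.160% to 0.443% higher and 0.0454% to 0.465% lower in Gja4 ECs, and from 0.0368% to 0.153% higher and 0.295% to 1.89% lower in Car4 ECs. Pairs fell from 5 to 0 with at least 5 cells expected. In Car4 over remaining ECs at P8, Fabp4 turned to -5.75 with thinned cells. Rbp7 turned to -5.16 with thinned cells, to -1.20 against all ECs below the threshold and to -2.31 without the highest 1% of cells. The last came from 0 CPM in Car4 and 1.97 CPM in remaining ECs, under the filter of 5 CPM, so its size is not firm. Without the highest 1% of cells Fabp4 was also lower in Car4 ECs, at 0.48 against 4.62 CPM, with no call before or after. The alternative with no limit on genes or mitochondrial share was not run for the clusters of the whole lungs. No paired analysis was possible because each group has 1 library and the labels give no shared replicate numbers, and no replicate could be left out. With 0 UMIs of Aqp7 in 210 ECs at E13.5, depth limits what that age can show.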

Other observations

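AT2-like cells of the libraries labelled control and null held 125 and 96.4 CPM of Lpl, and macrophage-like cells held 119 and 42.7 CPM. In the sorted libraries, Hilpda was among the listed genes with the largest change in both later steps. The E13.5 EC that held nearly all Fabp4 UMIs of its age also held Gpihbp1 at 213 CPM, Cd36 at 53.2 CPM, Fabp5 at 2289 CPM and Aplnr at 337 CPM, and Gja4 was at 0 in it.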
